A study of Rattus norvegicus with 28 samples.

Results

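Pcdh9 (ENSRNOG00000038068) encodes protocadherin 9, and it was followed here as one accessible site on rat chromosome 15 and as the RNA of the gene. The site, a region of 478 bp that ends at position 75876957 of chromosome 15 in the rn6 build, was chosen by its gain in accessibility in both pain models, so its own change is given as a description and not as a test. Its setting was all regions of chromosome 15 that start from 74.5 to 77 Mb, which are 9 regions of the 56810 in each coverage table. These 9 regions are the site and 8 neighbours. A further 12 regions in the 2.5 Mb below this window and 21 in the 2.5 Mb above it were added for comparison, which makes 42 regions over 7.5 Mb. In the RNA table Pcdh9 is 1 of 32754 listed genes, of which 21122 had a count.

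Lumbar dorsal root ganglia (DRGs), which hold the cell bodies of sensory neurons and their glia, were taken from the ipsilateral L4 to L6 levels of male Sprague-Dawley rats aged 12 weeks, and each library came from 1 rat. Chromatin was profiled by ATAC-seq, in which a transposase cuts accessible DNA. There were 6 libraries made 14 days after the sciatic nerve was loosely tied (chronic constriction injury, CCI), 6 libraries made 48 h after complete Freund's adjuvant (CFA) was injected into the hind paw, and 3 libraries of naïve rats without injury or injection. RNA-seq was analysed in 2 CFA libraries only. The rats were of an outbred stock with no engineered allele named in the labels, the controls were naïve rats and not sham-operated or vehicle-injected ones, and rats without mechanical hypersensitivity were left out of the pain groups by the study.

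Protocadherins are transmembrane adhesion proteins of the cadherin superfamily. Pcdh9 belongs to the non-clustered delta protocadherins, which stand alone in the genome, unlike the clustered alpha, beta and gamma genes, and which are known for roles in the recognition and wiring of neurons. Accessible sites far from a gene can act as enhancers, and accessible sites at a gene's start mark its promoter. The site was assigned to Pcdh9 by the study as the nearest annotated gene, from a long distance, and that assignment rests on position alone. When the annotated distance is read along the minus strand, on which RefSeq places the gene in GRCr8, the start of Pcdh9 falls in the flank above the window. The region nearest to it there is chr15:77738293-77739245. That start position was not checked against an rn6 annotation. The exons, introns and neighbouring genes of rn6 were not analysed here. In the GRCr8 assembly the nearest protein-coding genes on either side of Pcdh9, in order, are Rplp2l2 and then Pcdh20, another protocadherin, on one side and Golga6l9 and then Klhl1 on the other.

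The sequence that RefSeq gives just before the start of Pcdh9 is shown because the gene is transcribed in these ganglia and because the most accessible region of the area lies nearest to that start. It covers 250 bases, chr15:76643953-76644202 of GRCr8, a different build from the rn6 of the regions. The stretch was not placed on rn6, so it is not shown to lie within that accessible region. It is written 5′ to 3′ on the minus strand, with a forkhead (Foxo) core, TGTTTAC, in capitals.
Pcdh9 promoter: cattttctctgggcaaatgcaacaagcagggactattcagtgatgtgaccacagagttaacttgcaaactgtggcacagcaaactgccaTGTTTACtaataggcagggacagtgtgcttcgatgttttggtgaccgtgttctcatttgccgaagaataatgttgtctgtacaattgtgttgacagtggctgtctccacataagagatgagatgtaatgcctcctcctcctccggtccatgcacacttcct
The stretch had a GC content of 46.0%, against a median of 51.2% over all promoters of the table, and held 4 CG dinucleotides. TGTTTAC or its reverse GTAAACA was found 161 bases before the start, and 3.78% of the 33469 promoters of full length held either form, counted from 250 bases before the start to 50 bases after it. The letters TTACNTAA or TTANGTAA, the core of the PAR bZIP factor Hlf, are in 2.24% of promoters, and TATAAA or TTTATA, the TATA box, in 14.2%, and neither was found at Pcdh9. The forkhead and Hlf letters were searched because the study's motif analysis dealt with these factors. Among the 7 protocadherins followed here, the forkhead core was in the promoter of 1, Pcdh9. These are matches of letters in a window and not binding sites.

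The Pcdh9 site was among the least accessible of the 56810 regions in naïve ganglia and was higher in every library of both pain models. On the log2 scale of the deposited coverage, the naïve libraries measured 3.02, 3.43 and 3.12 in the table that also holds CCI. The CCI libraries, replicates 1 to 6, measured 4.09, 4.94, 5.38, 5.47, 4.84 and 5.16. The lowest CCI library thus lay above the highest naïve library, and CCI replicate 1 stood lowest of its group. The means were 3.19 ± 0.22 (SD, n = 3) and 4.98 ± 0.50 (SD, n = 6), a difference of 1.79 with a standard error of 0.27.

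In the separately normalized table that holds CFA, the same naïve libraries measured 3.18, 3.60 and 3.33 on the log2 scale. The CFA libraries, replicates a, b and 3 to 6, measured 3.97, 4.57, 3.95, 4.32, 3.90 and 4.49, where a and b stand for 2 columns whose names are also the descriptions of RNA-seq samples, so that they were placed in the CFA group without a replicate number. All 6 again lay above the 3 naïve libraries, with replicate 5 the lowest. The means were 3.37 ± 0.21 (SD, n = 3) and 4.2 ± 0.30 (SD, n = 6), a difference of 0.83 with a standard error of 0.18. Both differences rest on the same 3 naïve rats. The tables were not tested against each other because each was normalized on its own. In a bulk tissue, more cells with an open site and a more open site per cell cannot be told apart.

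**Figure D1:**
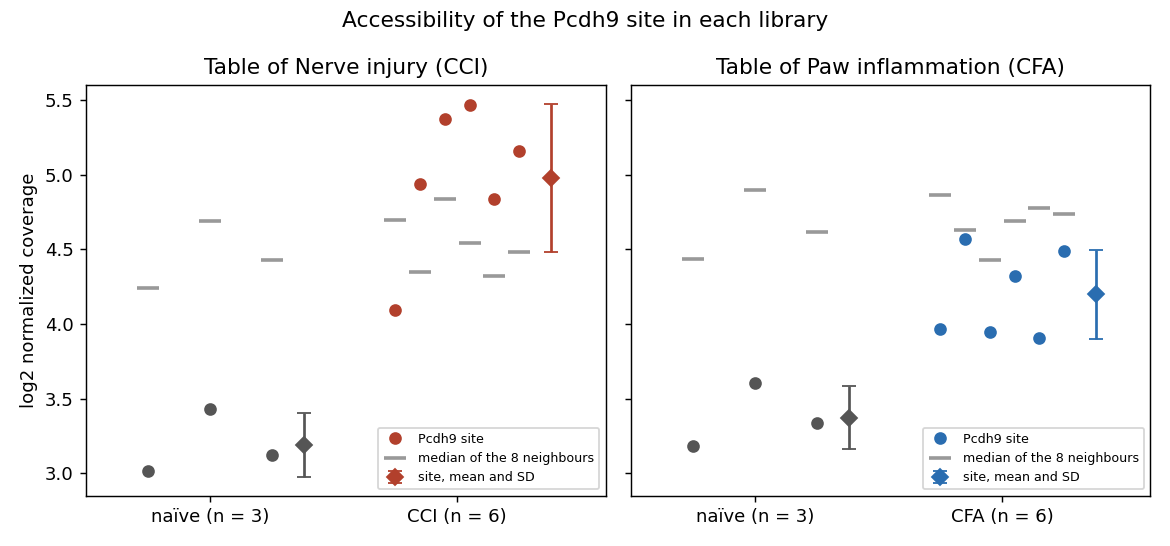
Accessibility of the Pcdh9 site in each library, as log2 normalized coverage, for the CCI table (left) and the CFA table (right). Filled circles are libraries, diamonds with bars are the group mean and SD, and grey dashes are the median of the 8 neighbouring regions in the same library, which lies above the site in every naïve library and below it in 5 of 6 CCI libraries.

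The rank of the site within each library needs no scale shared between the tables. Between 0.276% and 1.04% of all regions were lower than the site in the 3 naïve libraries. After CCI this share ranged from 6.37% in replicate 1 to 49.2% in replicate 4, so that the site moved from the bottom of the distribution to near its middle in replicates 3 and 4. After CFA it ranged from 2.51% in replicate 5 to 12.2% in replicate b. The naïve values lay few steps above the lowest value of their library. Only 8 to 12 distinct values lay below the site in each naïve library, against 17 to 40 in the CCI and 11 to 20 in the CFA libraries. This number falls with the site's own level, so it is no measure of depth. The read counts behind the values cannot be read from normalized values.

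The site also changed its place among its neighbours. In each of the 3 naïve libraries it was lower than all 8 other regions of the window. In CCI replicates 1 to 6 it was above 1, 6, 5, 8, 8 and 6 of them. In the CFA libraries, in the order given above, it was above 1, 3, 2, 2, 0 and 3 of them. Relative to the median of the 8 neighbours in the same library, the site lay between -1.30 and -1.22 on the log2 scale in naïve libraries. After CCI it lay at -0.60 in replicate 1 and between 0.52 and 0.92 in the other 5 libraries, and after CFA it lay between -0.90 and -0.06.

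No neighbour passed the threshold that the study set for a changed region, an unadjusted p below 0.001, in either model. The moderated linear model of limma was fitted over the whole table, and 0 of the 8 neighbours passed after CCI, where 0.91% of the 56810 regions passed and 0.75% passed as gains. After CFA 0 of 8 passed, where 1.12% of all regions passed and 0.565% passed as gains. At an unadjusted p below 0.05, 1 of 8 neighbours passed after CCI against 16% of all regions, and 1 of 8 after CFA against 18.9%. With 8 regions these shares are near the background and are no result about the window. The smallest Benjamini-Hochberg adjusted p among the neighbours in limma was 0.282 after CCI and 0.237 after CFA.

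The neighbours with the smallest p differed between the models. The region at 76583755-76584385, next above the site, was 0.56 higher after CCI (limma, unadjusted p = 0.0375), with values of 5.56, 5.64, 5.47, 4.95, 4.54 and 5.37 in the CCI libraries against 4.51, 4.77 and 4.81 in naïve. CCI replicate 5 overlapped the naïve range. After CFA the same region was 0.10 lower (limma, unadjusted p = 0.677). The region at 76705193-76705597, the most accessible neighbour in naïve ganglia at 5.11 ± 0.10 (SD, n = 3), was 0.40 lower after CFA (limma, unadjusted p = 0.0382), with values of 4.79, 4.57, 4.75, 5.25, 4.94 and 5.28 against 5.29, 5.25 and 5.45. It was 0.49 lower after CCI (limma, unadjusted p = 0.0509). The groups were not separate in either model. CCI replicate 1, at 5.32, lay above all 3 naïve libraries, against the direction of the other 5, and CFA replicates 4 and 6 lay within the naïve range.

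On the lower side, the 3 window regions nearest the site start at 75786387, 75759824 and 75208708. Their differences after CCI were -0.03, 0.25 and 0.67, and after CFA 0.40, 0.04 and 0.11. The closest of them, 75786387-75786728, lies 89.8 kb from the site. It measured 4.18, 4.82 and 4.26 in naïve, 4.62, 4.18, 4.995, 4.36, 4.21 and 3.997 after CCI, and overlapped widely between the groups. On the upper side the regions at 76665868, 76763881 and 76782275 differed by -0.60, 0.09 and -0.26 after CCI. In the CFA table they differed by -0.13, 0.21 and -0.12. The region at 76665868 spread most after CCI, from 2.02 in replicate 1 to 4.68 in replicate 3. The median difference of the 8 neighbours was 0.03 after CCI and -0.03 after CFA, beside -0.04 and 0.01 over all regions, and 4 of 8 differences were positive in each model.

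**Figure D2:**
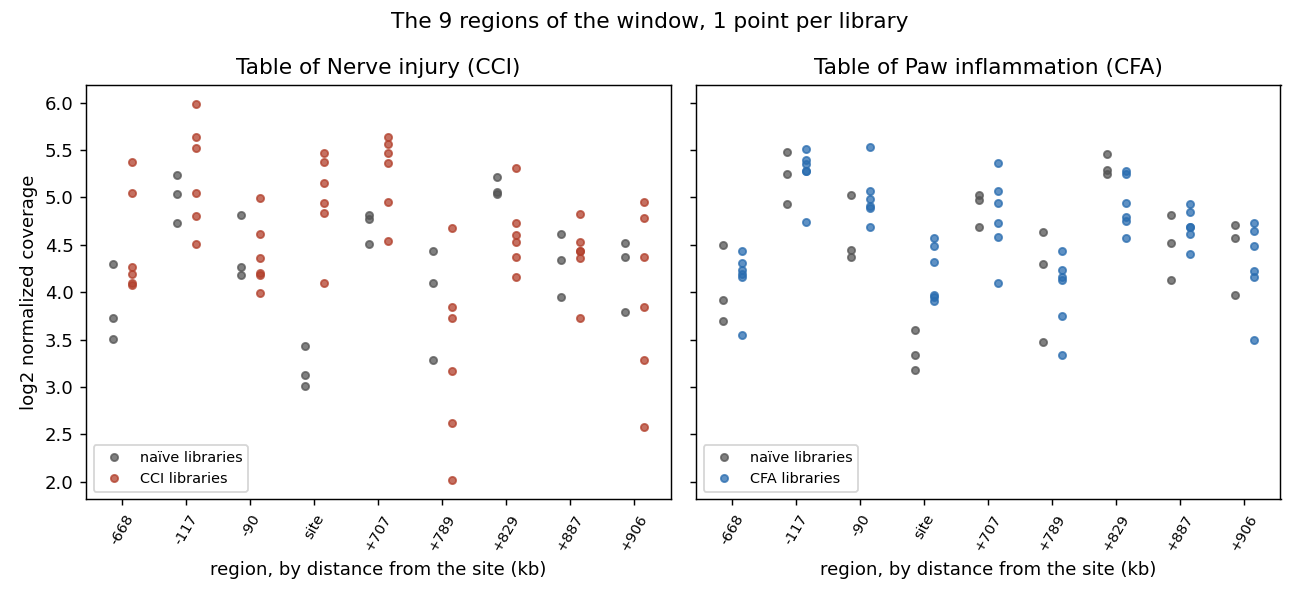
The 9 regions of the window in genome order, labelled by their distance from the Pcdh9 site in kb, with 1 point per library on the log2 normalized coverage scale, for the CCI table (left) and the CFA table (right). The site is the only one of the 9 at which every library of the pain model lies above every naïve library, which is part of how it was chosen; at the 8 neighbours the groups overlap.

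All libraries of a model lay above all naïve libraries at 0 of the 8 neighbours in both models. Over all regions this held for 3.85% after CCI and 5.39% after CFA. The site itself met it in both, as its choice by a small p makes likely.

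The site is isolated. No accessible region lies within 89.8 kb below it or 707 kb above it, where the median distance from a region to its nearest neighbour is 8.5 kb, and 4.14% of all regions have a larger one. The window holds 3.6 regions per Mb, the flank below it 4.8 and the flank above it 8.4, beside 17.5 over chromosome 15. The site is 478 bp wide, and the median region is 549 bp. The rule's limits fell in gaps. The outermost regions inside it start at 75208708 and 76782275 (0.67 and -0.26 after CCI, 0.11 and -0.12 after CFA), and those just outside at 74173177 and 77133401 (0.66 and 0.32 after CCI, -0.14 and -0.09 after CFA).

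The region nearest the annotated Pcdh9 start, 77738293-77739245, was the most accessible of the 42 and showed no detectable change in either model. It measured 8.11, 8.32 and 8.29 in naïve and 8.29, 7.98, 8.35, 8.28, 8.36 and 8.11 in CCI replicates 1 to 6. The difference was -0.01, with a 95% interval from -0.35 to 0.32 (limma, unadjusted p = 0.943). In the CFA table the naïve libraries measured 8.69, 8.91 and 8.88, and the CFA libraries 8.64, 8.78, 8.75, 8.66, 8.57 and 8.80. The difference was -0.13, with a 95% interval from -0.37 to 0.12 (limma, unadjusted p = 0.281). The groups overlapped in both tables, and the intervals leave room for changes of up to about that size. This region was named for its position after its values were known.

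Of the 21 regions above the window, 0 passed an unadjusted p below 0.001 in either model, against 0.91% of all regions after CCI and 1.12% after CFA. Their median difference was 0.04 after CCI and -0.07 after CFA. The groups were separate with the model higher at 1 region after CCI, 77998229 (1.10 higher, limma unadjusted p = 0.00287), and at 2 after CFA, 77387453 (0.28 higher, p = 0.0404 in limma) and 77632109 (0.19 higher, p = 0.14 in limma). With 21 regions these counts are near the shares of 3.85% and 5.39% over all regions and are no result about the flank.

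Below the window, each of the 12 differences after CCI was positive, from 0.02 to 1.01, with a median of 0.63, where 25302 of 56810 regions were positive. In limma 7 of the 12 had an unadjusted p below 0.05, against 16% of all regions, and 5 did not. An unadjusted p below 0.001 was found for 1, at 72171393-72171867, against 0.91% of all regions. It rose by 0.83, from 4.02, 3.84 and 4.26 in naïve to 4.68, 5.05, 4.68, 5.10, 4.76 and 4.995 after CCI (limma, unadjusted p = 3.65e-04, adjusted p = 0.102). Without naïve replicate 1 or 2 it missed the threshold (limma, unadjusted p = 0.00234 and 0.00371). The same flank after CFA had 5 positive differences of 12 and a median of -0.12. Its region at 74093244-74093592 rose by 0.97 after CFA, from 3.68, 4.01 and 4.16 to 5.19, 4.97, 4.88, 4.52, 4.55 and 5.41 (limma, unadjusted p = 6.38e-04, adjusted p = 0.0858), and was 0.60 higher after CCI (limma, unadjusted p = 0.0219). The CFA call was lost when any one of naïve replicates 1 to 3 or CFA replicates a, b or 3 was left out (limma, unadjusted p from 0.00123 to 0.00523). These regions were named after their values were seen. The regions of this flank lie at offsets from -3751 to -1703 kb from the site. Their median naïve level was 4.10, beside 4.36 for the 8 neighbours and 5.44 for all regions of the CCI table. Of 236 regions as low as the site, with a median naïve level of 3.29, 229 were positive after CCI. In limma 169 of these had an unadjusted p below 0.05. Both counts are partly fixed by the choice of these regions on a low naïve level. Regions matched to the flank's level were not compared, so its counts after CCI are no result about the flank.

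**Figure D3:**
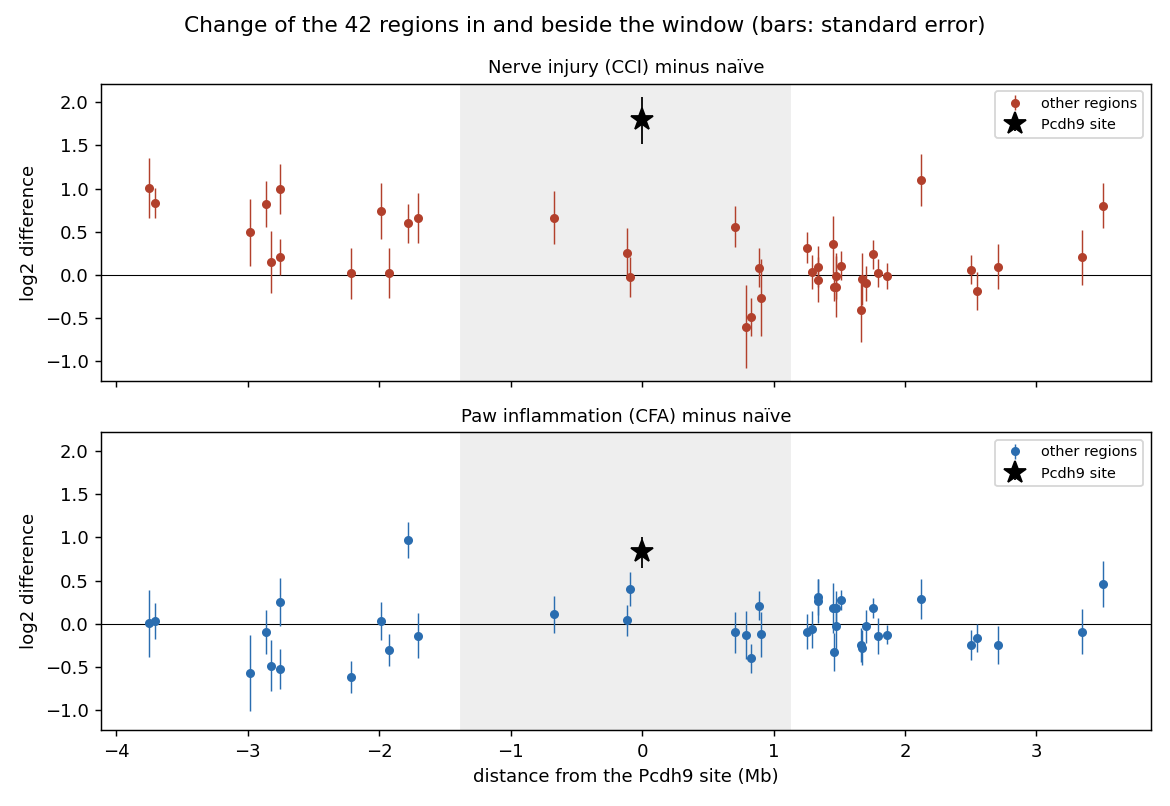
Difference in log2 normalized coverage between each pain model and naïve for the 42 regions, against their distance from the Pcdh9 site in Mb, with standard errors as bars; the shaded band is the window of 9 regions. The site, marked by a star, stands at 1.79 after CCI (top) and 0.83 after CFA (bottom), while the points below the window lie above 0 after CCI and on both sides of 0 after CFA.

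Regions as low as the site in naïve ganglia are set beside it here as a description. The study kept regions called in enough samples of a group, so a region this low in naïve libraries could enter the tables through a pain group in which it is high, and the direction of its difference is then partly fixed by that selection. In the CCI table, 236 other regions had a mean naïve level within 0.25 of the site's. The difference was positive for 229 of them, its median was 1.01, and its quartiles were 0.68 and 1.24. As gains at an unadjusted p below 0.001 in limma, 23.3% of them passed. In both tables such regions were picked by the same naïve libraries that enter the difference. Their differences and shares passing are therefore partly fixed by this choice too, and are not compared with those of all regions. Of the 236, 1 had a larger difference than the site. After CFA the 234 regions so defined had 220 positive differences and a median difference of 0.56, with quartiles of 0.26 and 0.82, and 5.98% passed as gains. Of these, 59 had a larger difference than the site. Over all regions, 13 exceeded the site's difference after CCI and 193 after CFA. Taken relative to the median of these low regions in the same library, the site's difference was 0.76 after CCI and 0.26 after CFA. This comparison was added after the data were seen, and the part of the low naïve level in the site's change was not tested.

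The spread between high and low regions also moved with the groups. The 90th percentile of signal divided by the 25th, both counted in steps of distinct values within a library, was 7.97 to 10.2 in naïve, 5.24 to 7.77 in CCI and 8.38 to 10.2 in CFA libraries. In CCI replicates 1 to 6 the ratios were 7.39, 6.24, 5.24, 6.2, 7.77 and 5.32. The site measured 4.09, 4.94, 5.38, 5.47, 4.84 and 5.16 in the same order. The number of sequencing runs differed as well, since CCI replicates 3 to 6 were sequenced in 1 run and the other 11 libraries in 2 runs. With the CCI libraries of 2 runs alone, replicates 1 and 2, the site was 1.33 above naïve. The part of these measures in the result was not tested.

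**Figure D4:**
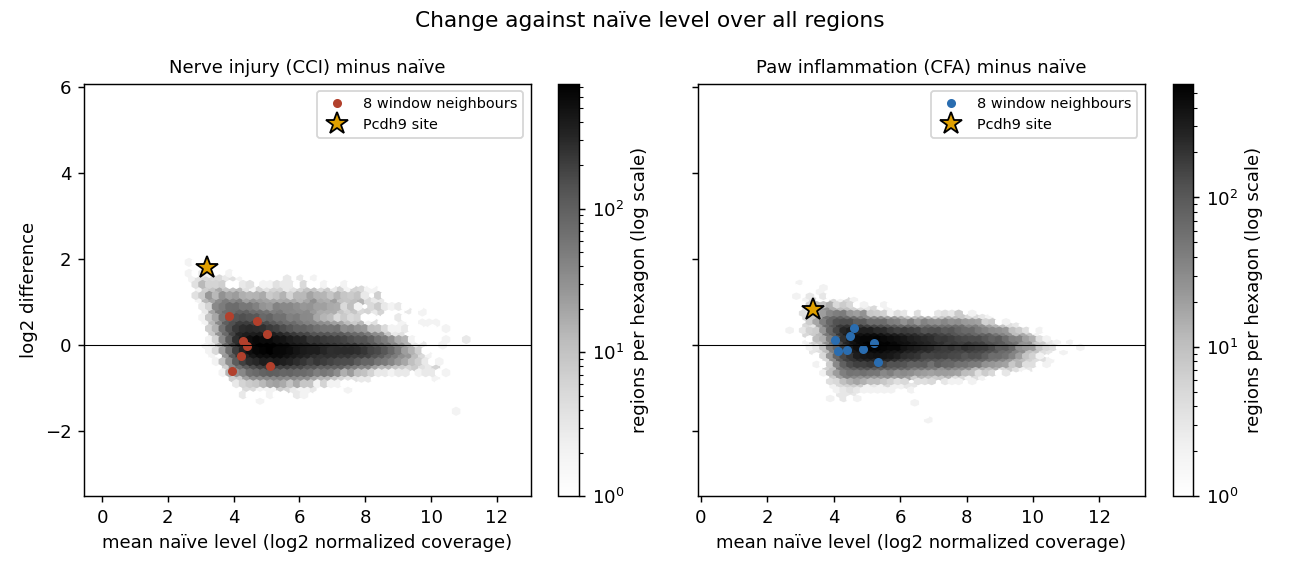
Difference between each pain model and naïve against the mean naïve level, both in log2 normalized coverage, for all 56810 regions as grey hexagons shaded by their number on a log scale, with the Pcdh9 site as a star and its 8 neighbours as coloured points. The site sits at the low end of naïve levels, where the cloud bends upward, most clearly after CCI.

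The regions whose levels followed the site most closely over the 9 libraries of each table lie on other chromosomes. The region with the highest mean of both Pearson correlations was chr2:210582555-210583566 (r = 0.927 in the CCI table and 0.978 in the CFA table), with gains of 0.51 in each model. It was followed by chr17:44440561-44440891 (0.91 and 0.968), chr1:181383052-181383328 (0.979 and 0.897), chr9:11730511-11730893 (0.942 and 0.929) and chr12:3340812-3341234 (0.913 and 0.956). The last gained 1.49 after CCI and 0.83 after CFA. These are the highest correlations among all regions, over libraries that fall into a naïve and a model group and share their naïve rats, so they describe a pattern only. Within the window the correlation with the site ranged from -0.76 at 76705193 to 0.65 at 75208708 in the CCI table and from -0.50 at 76705193 to 0.72 at 75786387 in the CFA table.

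Pcdh9 RNA was readily detected in inflamed-paw ganglia. CFA replicate 1 had 613 counts of 10520647, which is 58.3 CPM (counts scaled to the library total) with an exact 95% Poisson interval from 53.7 to 63.1. CFA replicate 2 had 1907 counts of 28825688, which is 66.2 CPM with an interval from 63.2 to 69.2. The mean was 62.2 ± 5.58 CPM (SD, n = 2), and the intervals, which cover counting error only, did not overlap. Replicate 2 was thus 0.18 higher on the log2 scale, while the SD of that ratio was 0.29 over the 15115 genes that reached 10 counts in each library. Of these genes 36.4% differed more between the 2 rats. The genes were not matched to Pcdh9 in counts, and counting error widens the ratio at low counts. The SD and the share therefore do not place Pcdh9 among genes of its level. RNA of naïve and CCI ganglia was not analysed here, so no change of Pcdh9 RNA was measured here. The study itself reported higher Pcdh9 RNA than in naïve ganglia in both models, with these 2 libraries as its CFA group. That reported change was not re-examined.

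Pcdh9 and the 6 other protocadherins followed here were paired with an identifier through a list of genes. The study had called these genes in both pain models on these libraries among others, so the list is not independent of them. Counts depend on transcript length, which was not at hand, so levels are given gene by gene and genes are not ranked. The other delta protocadherins measured 49.2 and 51.8 CPM for Pcdh7, 63.6 and 65.7 CPM for Pcdh17, and 27.4 and 29.5 CPM for Pcdh18 in replicates 1 and 2. Of the clustered genes, whose exons are partly shared or near-identical so that counts may be split among them, Pcdha4 measured 349 and 371 CPM, Pcdhb3 6.94 and 6.11 CPM, and Pcdhb8 4.47 and 4.68 CPM. Of these 6 genes 5 were higher in replicate 2, as Pcdh9 was, with log2 ratios from -0.18 for Pcdhb3 to 0.11 for Pcdh18. The intervals of the 2 libraries were apart for Pcdha4 and overlapped for the other 5. These intervals narrow as counts rise, so the split is no result about the genes. Pcdha4 had a log2 ratio of 0.09 from 3672 and 10692 counts, and Pcdhb3 one of -0.18 from 73 and 176 counts.

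Among other cadherin superfamily genes, the log2 ratio of replicate 2 to replicate 1 was positive for 7 of 7, from 0.03 to 0.36, where the median over the 15115 genes was -0.011. These ratios compare 2 rats of 1 group and were not tested. The counting intervals of the 2 libraries overlapped for each of the 7 genes. They comprise the classical cadherins Cdh7 (12 and 15.3 CPM), Cdh9 (13.6 and 13.9 CPM) and Cdh10 (8.36 and 9.09 CPM), the membrane-anchored Cdh13 (61.1 and 63.9 CPM), the giant cadherin Fat3 (28.8 and 33.5 CPM), and the calsyntenins Clstn2 (18.2 and 21.4 CPM) and Clstn3 (202 and 216 CPM). The catenins that tie cadherins to the cytoskeleton and the synaptic adhesion genes had log2 ratios from -0.10 to 0.13, with a median of -0.01 and 2 of 6 higher in replicate 2. Ctnna2 measured 66.8 and 66.7 CPM, the presynaptic neurexins Nrxn2 190 and 191 CPM and Nrxn3 41.5 and 41.1 CPM, and their postsynaptic partner Nlgn1 35.7 and 33.2 CPM. Ctnnal1 measured 148 and 142 CPM, and the adhesion receptor Dscam 9.60 and 10.5 CPM. Klhl1, an actin-binding protein gene of the same stretch of chromosome, was low, with 3.71 and 4.44 CPM from 39 and 128 counts.

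**Figure D5:**
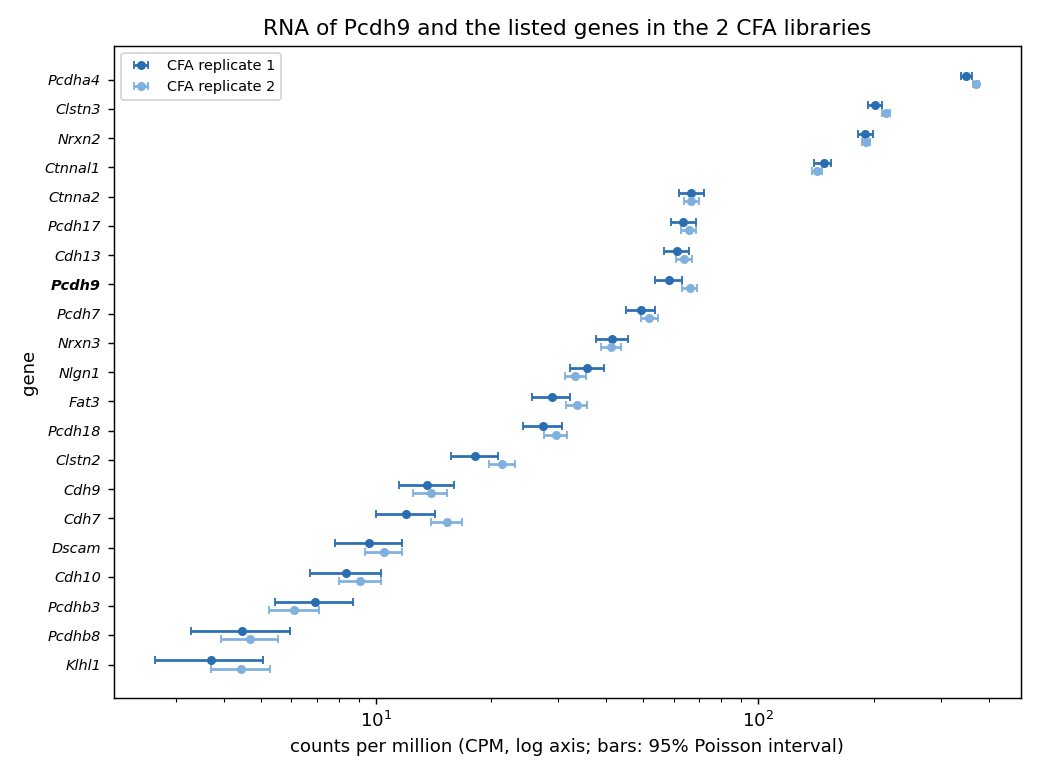
RNA of Pcdh9 and 20 listed genes in the 2 CFA libraries as CPM on a log axis, with exact 95% Poisson intervals as bars and genes sorted by their mean. Pcdh9 lies at 58.3 and 66.2 CPM. The intervals cover counting error only and narrow as counts rise, so their overlap does not set genes apart.

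Marker genes are given as a description of the tissue and not as a check of its label. A marker could be paired only through the study's lists of called genes, so a paired marker was likely to be detected. Of 17 sensory neuron markers 12 could be paired, and all 12 were well detected, from 247 to 11600 CPM in the mean, with a sum of 36600 CPM in replicate 1 and 37800 CPM in replicate 2. Their log2 ratio of replicate 2 to replicate 1 had a median of 0.00 and ranged from -0.17 to 0.21, with 7 of 12 higher in replicate 2. Of 11 markers of satellite glia and Schwann cells 3 could be paired (Gja1, Mbp, S100b), with sums of 3290 and 3150 CPM, and of 6 of fibroblasts and endothelium only Col1a1 could, with 524 and 501 CPM. Markers of immune cells and of skeletal muscle, 7 genes each, were not analysed here, so these cell types could not be judged. The part of these cell types in the Pcdh9 level was not tested.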

How the data were processed

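ATAC-seq was analysed in 15 DRG libraries and RNA-seq in 2, grouped by the sample labels, with the runs of a library taken as 1 library. The authors aligned reads to rn6 with Bowtie2, removed duplicates, shifted for transposase binding, downsampled the samples, called peaks per sample with MACS2 and kept regions called in enough samples of a group. They deposited log2 normalized coverage per region in 2 tables, each with 1 pain model and the naïve libraries. All columns of a table have nearly the same distribution, and low regions hold few distinct values. RNA reads were aligned with HISAT2, and the authors deposited a raw count per Ensembl gene. Its totals were 10.5 M and 28.8 M, and the ATAC-seq depth cannot be read from normalized values.

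Every region of each table was compared with naïve by limma 3.58.1 in R 4.3.3 (two-sided, unadjusted p below 0.001 as in the study, Benjamini-Hochberg adjusted p beside it). The fit was tested on simulated data. The p-values measure the spread between rats. RNA counts were divided by library totals (CPM), with Python 3.11.15, pandas 2.3.3 and scipy 1.17.1. The Pcdh9 site, its window, the gene lists and the rule for named items (the site, its 5 nearest regions on each side, the extremes of the window, the 5 most similar regions and the listed genes) were chosen with earlier results of these data known. Other items are said to be named after their values were seen. Gene symbols were paired through the study's gene lists. 1 gene of the lists is not reported here. Of 21 genes searched for motifs, 16 had a RefSeq promoter. Alternatives were an intensity trend, quality weights, a filter on low regions, rescaling over chromosome 15, other thresholds, a replicate block, libraries of 2 runs, and leaving out each library.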

Additional observations from a re-analysis of the deposited data

Results flagged for a closer look

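The groups of 6 libraries numbered 24, comprising the site, its 10 nearest regions and its share of lower regions in each model. A library stood far from the others in 2 of them. The rule is set to flag about 1 in 20 groups by chance, a nominal rate that was not measured here. At 75208708 CFA replicate 3 was lowest, at 3.55, where the other 5 CFA libraries lay between 4.16 and 4.44. At 75759824 CFA replicate 4 was lowest, at 4.74, where the others lay between 5.28 and 5.51. Neither stood apart at the Pcdh9 site.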

How the results depend on the processing

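No neighbour of the site passed the threshold under any alternative run, including p below 0.01, an adjusted p below 0.05 and leaving out each library. The filter on low regions removed the site and kept 3 of its 8 neighbours in the CCI table and 2 in the CFA table, so it says little about the window. The site's difference ranged from 1.69 to 1.97 after CCI and from 0.73 to 0.94 after CFA when each library was left out, and it was 0.76 and 0.26 relative to regions of similar naïve level. The gain at 72171393 after CCI missed the threshold with an intensity trend (p = 0.00227 in limma), under the replicate block (0.76, p = 0.0131 in limma), with libraries of 2 runs (p = 0.00638 in limma) and without naïve replicate 1 or 2. The gain at 74093244 after CFA missed it with quality weights (p = 0.00117 in limma) and without any one of naïve replicates 1 to 3 and CFA replicates a, b and 3 (0.84 to 1.08). Of 349 values for named regions under alternatives, 23 changed sign, all at regions whose reported difference was between -0.26 and 0.11. Leaving out 1 library gave ranges that crossed 0 after CCI at 75786387 (-0.15 to 0.17), 76763881 (-0.089 to 0.242), 76782275 (-0.478 to 0.017) and 77738293 (-0.078 to 0.039), and after CFA at 74173177 (-0.242 to 0.047), 75208708 (-0.062 to 0.339), 75759824 (-0.11 to 0.17), 76583755 (-0.21 to 0.04), 76665868 (-0.46 to 0.12) and 76782275 (-0.348 to 0.036). The sign also changed at 75786387 under the replicate block (0.18), at 76763881 with rescaling over chromosome 15 (-0.002) and at 76782275 with libraries of 2 runs (0.083). Same-numbered CCI and naïve libraries deviated together with r of -0.058, 0.073 and -0.029. Pairs of different numbers gave r from -0.096 to 0.067. This gave no clear sign that the numbers pair the rats, but so few values cannot show that the rats were unpaired. No paired analysis was possible for CFA because 2 of its columns could not be tied to a numbered ATAC-seq library, which leaves only number 3 shared with naïve. The Pcdh9 RNA level was 62.2 CPM with median-of-ratios scaling and 62.3 CPM with the total over genes of at least 10 counts.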
